A study of Homo sapiens with 6 samples.

Results

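Receptor tyrosine kinase genes were examined in DU145 cells treated with taraxasterol (TAX) in comparison with control cells. The members were 49 listed genes of this class, taken by their symbols out of 23062 identifiers, and each was found in every library. Of these 49 genes, 19 reached at least 1 FPKM (fragments scaled to transcript length and library depth) in at least 3 of the 6 libraries, and they were tested among the 12359 genes that met this limit. DU145 is a human androgen-independent prostate carcinoma line from a brain metastasis, labelled wild type and grown in MEM medium with serum. Bulk RNA was sequenced in 3 libraries of control cells kept in medium for 48 h and 3 libraries of cells that received TAX, a pentacyclic triterpene of dandelion, at 56 µM for 48 h, the dose labelled as the IC50. TAX was dissolved in DMSO while the controls are labelled as medium. It is not stated whether the controls received DMSO, so the solvent and TAX cannot be told apart. Whether the replicates came from separate cultures is not stated, and the p-values then measure only the spread between these samples, which may be technical. In such bulk RNA, fewer cells that express a gene and less RNA per cell cannot be told apart either.

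Receptor tyrosine kinases are membrane proteins that bind a ligand outside the cell and phosphorylate tyrosines inside it. Most form dimers once the ligand is bound, and the phosphorylated tails then recruit adaptors that carry the signal to the RAS/MAPK and PI3K/AKT pathways, while phosphatases, ubiquitin ligases and Sprouty proteins end it. In carcinoma cells they are known for driving growth, survival and migration, and the study follows the receptor FGFR2 and the PI3K/AKT pathway.

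The promoter stretches of 4 receptor genes are shown because AXL, MET and EPHA2 were the receptors with the smallest p among those tested, all higher in TAX, and EPHA1 was the receptor above 0.1 FPKM whose TAX libraries all lay below the control libraries. Each stretch holds the 120 bases before the outermost start of the gene in RefSeq (GRCh38.p14) on its own strand. For AXL, EPHA2 and EPHA1 this is also the start in GENCODE 29, while that of MET lies further downstream, at chr7:116672390. Capitals mark the GC box, the letters GGGCGG or their reverse complement CCGCCC. The stretches lie at chr19:41219083-41219202 on the plus strand for AXL, chr7:116672076-116672195 on the plus strand for MET, chr1:16156088-16156207 on the minus strand for EPHA2 and chr7:143408893-143409012 on the minus strand for EPHA1.
AXL: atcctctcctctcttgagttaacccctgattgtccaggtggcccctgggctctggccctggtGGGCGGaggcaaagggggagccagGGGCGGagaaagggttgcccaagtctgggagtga
MET: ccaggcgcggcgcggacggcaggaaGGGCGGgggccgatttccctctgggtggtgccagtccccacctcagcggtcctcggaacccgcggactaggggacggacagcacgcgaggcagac
EPHA2: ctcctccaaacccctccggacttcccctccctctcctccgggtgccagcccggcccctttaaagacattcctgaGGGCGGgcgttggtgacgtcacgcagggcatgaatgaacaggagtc
EPHA1: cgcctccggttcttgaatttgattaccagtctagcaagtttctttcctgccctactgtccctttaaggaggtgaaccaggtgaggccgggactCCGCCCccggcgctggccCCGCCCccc

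AXL carried the GC box at bases -58 to -53 and -34 to -29, counted back from the end of the stretch, MET at -95 to -90, EPHA2 at -46 to -41 and EPHA1 at -27 to -22 and -9 to -4. Of the 49 genes, 43 had a RefSeq promoter at their outermost start. Within these windows of 250 bases the GC box was found on either strand in 13 of 16 tested receptors and 18 of 27 receptors under the limit, while 41.7% of all 24886 RefSeq promoters and 56.02% of the 13821 of protein-coding genes hold it. The median GC content of the windows was 71.8% for the tested receptors, 64.4% for the receptors under the limit and 62.4% for all protein-coding genes. The TATA box TATAAA was in 0 of 16 tested receptors and 2 of 27 others against 11.4% of all promoters, the AP-1 motif TGANTCA in 2 of 16 and 2 of 27 against 6.67%, and the E-box CACGTG in 0 of 16 and 1 of 27 against 6.44%, all read on both strands. The TGANTCA and CACGTG motifs do not contain each other or the GC box, and a match of letters is a description and not a bound site.

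The primers with which the study measured FGFR2 by qPCR are shown because receptor genes share parts of their kinase sequence, and capitals are not used since the whole primer matters.
FGFR2 forward: agagtgatgtctggtccttcgg
FGFR2 reverse: tggctggcttatccattctgtg

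Both primers of 22 bases matched GENCODE 29 transcripts of FGFR2 with 0 mismatches. The forward primer also had a best ungapped site with at most 4 mismatches in other receptors, 20 of the 49 genes in all with FGFR2 included, among them TIE1 with 1 mismatch and FGFR1, FGFR3 and AXL with 2 each. The reverse primer had such a site in 2 genes, FGFR2 with 0 mismatches and FGFR3 with 4, and its best site held 7 mismatches in FGFR1 and in AXL and 8 in FGFR4. FGFR2 and FGFR3 were thus the receptors, among the 49 searched, in which both primers stayed at or under 4 mismatches. Each primer was matched on its own. Whether both sites lie in the same transcript, in order and at a distance that can be amplified was not tested.

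The summed FPKM of the libraries lay between 322483 in control 3 and 363724 in control 1, same-group libraries correlated at r = 0.991 to 0.995 across genes, and no read counts were given, so depth is unknown. Control 3 had the lowest median log2(FPKM + 1), 3.28 against 3.44 to 3.46 in the other 5 libraries, and held the lowest value of 15 of the 19 tested receptors (78.9%), as of 58.0% of all tested genes. Its part in the differences was examined by leaving it out. KRT8 and KRT18, keratins of simple epithelium, and EPCAM were abundant in all 6 libraries, and KLK3, the gene of prostate-specific antigen, was listed at 0 in each. Endothelial markers did not exceed 0.145 FPKM. Among leukocyte markers CD3E was at 0 in all 6 libraries, PTPRC did not exceed 0.0069 FPKM and CD14 lay between 0.178 and 0.412 FPKM in control and between 0.210 and 0.419 FPKM in TAX. The sum of the 6 epithelial markers moved with the group, from 428 to 545 FPKM over the control libraries and from 555 to 606 FPKM over the TAX libraries, with KRT18, KRT19 and EPCAM higher in each TAX library than in each control library, KRT8 and CDH1 (54.1 and 47.5 FPKM in control and TAX) overlapping and KRT5 at 0. The sum of the 4 fibroblast markers moved the other way, from 1.93 to 2.11 FPKM in control and from 1.48 to 1.54 FPKM in TAX, with COL1A1 at 2.00 and 1.44 FPKM, COL3A1 at 0.0406 and 0.0656 FPKM and DCN and LUM at 0. The part of either in the receptor values was not tested.

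AXL, MET, EGFR and EPHA2 carried most of the receptor mRNA of DU145 cells. AXL, which binds the vitamin K-dependent ligand GAS6, was the most abundant with 137 FPKM over the 6 libraries, rank 326 of 23062 identifiers. MET, the receptor of hepatocyte growth factor, followed at 62.4 FPKM, EGFR, the receptor of EGF and TGF-alpha, at 40.7 FPKM and EPHA2, an ephrin-A receptor, at 33.7 FPKM. AXL alone gave 32.1% of the summed FPKM of the 49 genes, MET 14.6%, EGFR 9.53% and EPHA2 7.87%. DDR1, a collagen receptor, came next at 27.1 FPKM with 6.34% of the sum. The 49 genes together held 0.123% of all FPKM.

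The order was stable at the top. AXL, MET, EGFR, EPHA2, DDR1, RYK and EPHB4 held ranks 1 to 7 in each of the 6 libraries. Ranges met within this group too, as for EGFR and EPHA2, and only 6 of the 18 neighbouring pairs of tested receptors had ranges over the 6 libraries that stayed apart, which were AXL over MET, MET over EGFR, DDR1 over RYK, IGF1R over ROR1, FGFR4 over PTK7 and TYRO3 over MERTK. In 11 of the 18 pairs the order was the same in all 6 libraries. FGFR1 and ERBB2, at 14.6 and 13.9 FPKM over the 6 libraries, and ROR1 and ERBB3, at 6.99 and 6.90 FPKM, changed places between libraries.

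**Figure D1:**
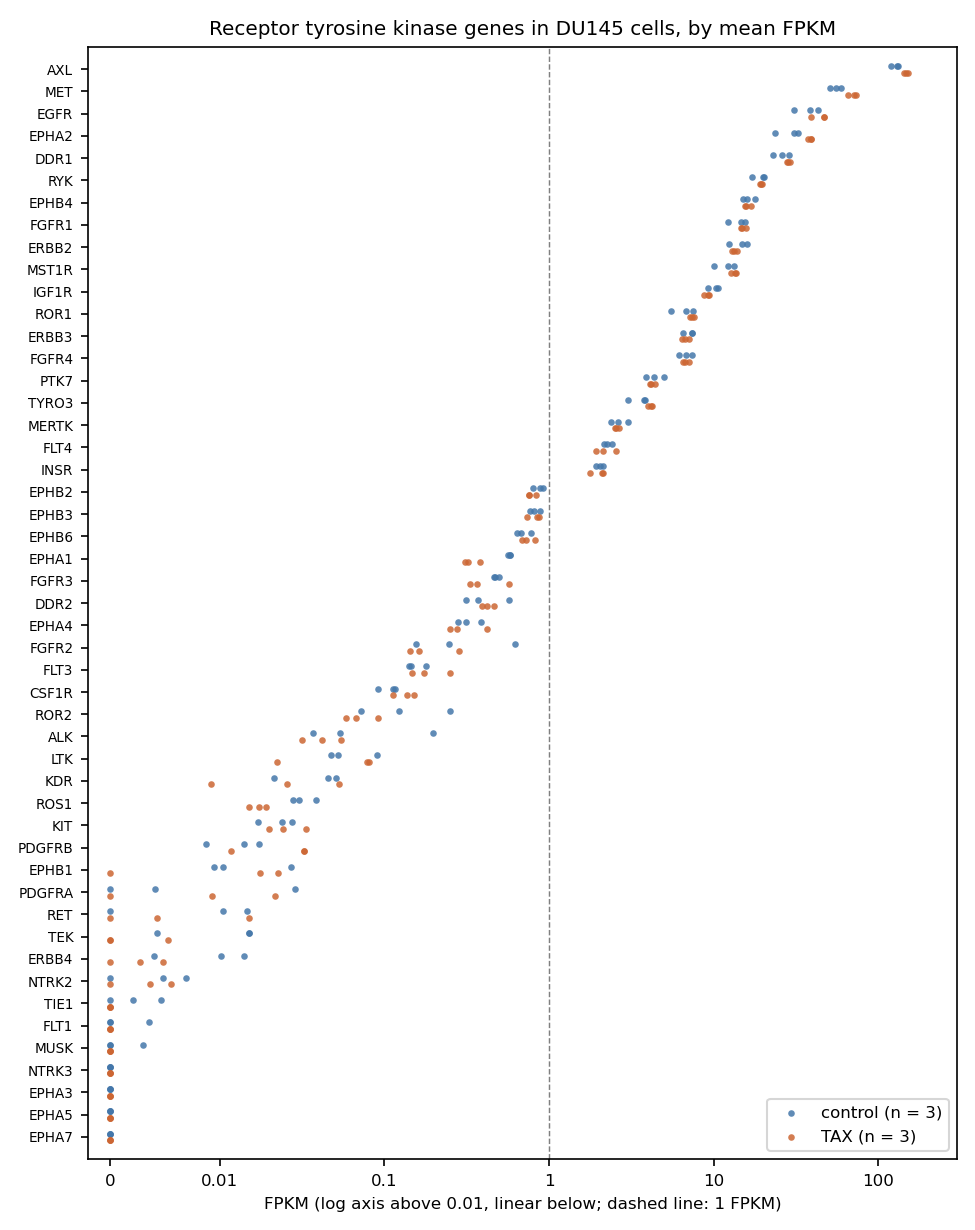
FPKM of the 49 receptor genes in DU145 cells, ordered by the mean over 6 libraries, with each point 1 library (blue for 3 control, orange for 3 TAX). The axis is logarithmic above 0.01 FPKM and linear below, the dashed line marks 1 FPKM, and 19 genes lie to its right while 4 are listed at 0 in all 6 libraries.

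No receptor passed an adjusted p of 0.05. By limma with Benjamini-Hochberg adjustment over 12359 genes, 0 of 19 tested receptors were higher and 0 were lower, against 0.316% of all tested genes higher (39 genes) and 0.162% lower (20 genes), and the adjusted p of the receptors ran from 0.180 to 0.984. Leaving out any 1 library brought the 39 higher calls over all genes to between 9 and 28. The 20 lower calls came to between 8 and 15, and the receptors stayed at 0. At an unadjusted limma p under 0.05, AXL, MET and EPHA2 were higher (3 of 19, 15.8%, against 7.73% of all tested genes) and 0 were lower (against 2.41%). The TAX libraries lay wholly above the control libraries for these 3 and for TYRO3 (4 of 19, 21.1%, against 14.6% of all tested genes), and wholly below them for 0 receptors (against 3.34%). Higher fitted values were found for 10 receptors and lower ones for 9, with a median difference of 0.025 on the log2(FPKM + 1) scale, while over all tested genes 8537 were higher and 3822 lower with a median of 0.054. The counts moved with the control libraries, and those over all genes moved too. Without control 2, 6 receptors were higher at an unadjusted limma p under 0.05 (against 11.1% of all tested genes) and 8 had separate groups, all higher (against 26.2%). Without control 3, 3 receptors were higher and ERBB2 and IGF1R lower at an unadjusted limma p under 0.05 (against 5.72% and 5.59% of all tested genes), and 4 were wholly higher and 4 wholly lower (against 15.9% and 13.4%).

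**Figure D2:**
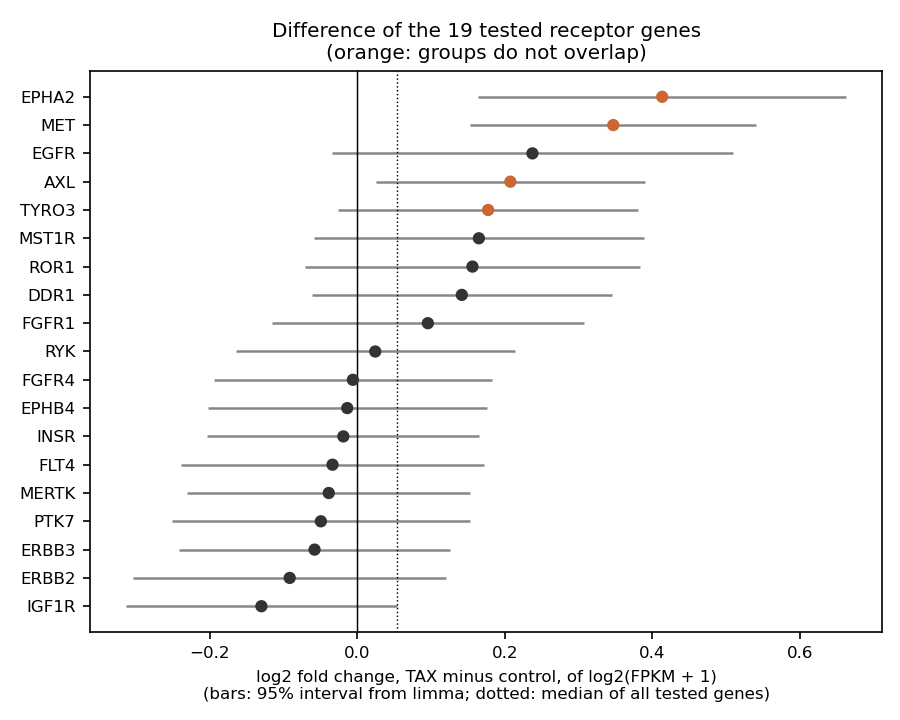
Difference between TAX and control on the log2(FPKM + 1) scale for the 19 tested receptors, with the 95% interval from limma as a bar and the median of all tested genes (0.054) as a dotted line. EPHA2 (0.41), MET (0.35), AXL (0.21) and TYRO3 (0.18), in orange, are the receptors whose TAX and control libraries do not overlap, and IGF1R (-0.13) has the lowest value.

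In the TAM family, whose members AXL, TYRO3 and MERTK bind GAS6, with protein S as a ligand of TYRO3 and MERTK, and are known for clearing apoptotic cells and dampening inflammation, AXL and TYRO3 were higher in each TAX library than in each control library and MERTK was not. AXL, at chr19:41219203-41261766 (GRCh38, plus strand), measured 130.4, 132 and 119.6 FPKM in control 1, 2 and 3 and 146, 143 and 152 FPKM in TAX 1, 2 and 3. All 3 TAX values lay above the highest control value. The means were 127 ± 6.68 FPKM in control and 147 ± 4.38 FPKM in TAX (SD, n = 3), a log2 difference of 0.21 (SE 0.082, 95% interval 0.025 to 0.39, limma adjusted p = 0.437). The unadjusted limma p of AXL was no longer under 0.05 when any 1 of the TAX libraries was left out. TYRO3, at chr15:41557675-41583586 on the plus strand, measured 3.83, 3.79 and 3.01 FPKM in control 1, 2 and 3 and 4.01, 4.16 and 4.19 FPKM in TAX 1, 2 and 3. The TYRO3 groups did not overlap, with the gap between control 1 and TAX 1 being small. The log2 difference of TYRO3 was 0.18 (SE 0.092, limma adjusted p = 0.539), and 0.091 without control 3. MERTK averaged 2.67 ± 0.310 FPKM in control and 2.57 ± 0.0834 FPKM in TAX (SD, n = 3) with overlapping libraries and a log2 difference of -0.038 (limma adjusted p = 0.896). The ligands were expressed in the same cells, GAS6 at 15.9 FPKM in control and 17.5 FPKM in TAX and PROS1, the gene of protein S, a ligand of TYRO3 and MERTK and not of AXL, at 28.2 and 27.1 FPKM.

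In the MET family both members were expressed, and only the groups of MET stayed apart. MET, at chr7:116672390-116798386 on the plus strand, gave 58.9, 55.0 and 50.6 FPKM in control 1, 2 and 3 and 71.1, 65.6 and 73.1 FPKM in TAX 1, 2 and 3. The lowest TAX library was above the highest control library. MET had the smallest p of the 19 tested receptors, with means of 54.8 ± 4.17 and 69.9 ± 3.89 FPKM (SD, n = 3) and a log2 difference of 0.35 (SE 0.088, 95% interval 0.15 to 0.54, limma adjusted p = 0.180). MST1R, the receptor of macrophage-stimulating protein, gave 12.2, 13.3 and 10.0 FPKM in control 1, 2 and 3 and 12.7, 13.5 and 13.7 FPKM in TAX 1, 2 and 3. The control 2 library of MST1R lay within the TAX range, and the log2 difference was 0.16 (SE 0.10, limma adjusted p = 0.602). Without control 3 it was 0.060, and it was 0.25 without control 2 and 0.19 without TAX 1, each with separate groups. HGF, the ligand of MET, was listed at 0 in all 6 libraries, and MST1, the ligand of MST1R, averaged 0.901 FPKM in control and 0.732 FPKM in TAX.

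Among the EPH receptors, which bind membrane-bound ephrins on neighbouring cells, no member passed the adjusted threshold, the TAX libraries of EPHA2 all lay above the control libraries, those of EPHB4 overlapped them and those of EPHA1, at a much lower level, all lay below. EPHA2, at chr1:16124337-16156087 on the minus strand, measured 30.6, 32.5 and 23.5 FPKM in control 1, 2 and 3 and 38.8, 37.4 and 39.1 FPKM in TAX 1, 2 and 3. The groups did not overlap, and control 3 lay well below the other control libraries. EPHA2 had the largest log2 difference of the 19 tested receptors in the fit over all 6 libraries, 0.41 (SE 0.11, 95% interval 0.16 to 0.66, limma adjusted p = 0.224), with means of 28.9 ± 4.73 and 38.4 ± 0.952 FPKM (SD, n = 3). Without control 3 the difference of EPHA2 was 0.28. EPHB4, an ephrin-B2 receptor known from vessel formation, gave 17.7, 16.0 and 14.998 FPKM in control 1, 2 and 3 and 15.4, 16.9 and 15.8 FPKM in TAX 1, 2 and 3, with full overlap and a log2 difference of -0.013 (95% interval -0.20 to 0.18, limma adjusted p = 0.966). EPHB4 exons overlap those of SLC12A9 on the opposite strand by 69 bases, a gene at 4.56 FPKM in control and 4.87 FPKM in TAX. The ligand EFNA1 averaged 11.3 FPKM in control and 12.6 FPKM in TAX.

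EPHA1 was under the limit for the test and is named after its values were seen. It measured 0.577, 0.564 and 0.578 FPKM in control 1, 2 and 3 and 0.320, 0.383 and 0.308 FPKM in TAX 1, 2 and 3. The control values were close together and all 3 TAX values lay below them. The means were 0.573 ± 0.00792 and 0.337 ± 0.0405 FPKM (SD, n = 3), a ratio of 0.588, and the exact two-sided permutation test gave p = 0.1, the smallest that 3 against 3 libraries allow. In a limma fit with the limit lowered to 0.1 FPKM, its log2 difference was -0.23 (unadjusted p = 0.0024, adjusted p = 0.197), a p slightly under that of MET in that fit. With no limit the unadjusted limma p of EPHA1 was 0.00039 (adjusted p = 0.150). With a pseudocount of 0.1 and the limit of 0.1 FPKM, the limma log2 difference was -0.63 (adjusted p = 0.247). The exons of EPHA1 overlap those of ZYX, a gene on the opposite strand, by 82 bases, ZYX averaged 41.2 FPKM in control and 49.6 FPKM in TAX, and whether the counting used strand is not given in the sources used here. The other EPH genes of low level were EPHB2 at 0.824 FPKM, EPHB3 at 0.818 FPKM, EPHB6, a receptor without kinase activity, at 0.721 FPKM and EPHA4 at 0.321 FPKM over the 6 libraries, and their groups overlapped. EPHB1 averaged 0.0157 FPKM in control and 0.0135 FPKM in TAX, and EPHA3, EPHA5 and EPHA7 were listed at 0 in all libraries.

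In the ERBB family EGFR was the most abundant member and its groups were not separate. It gave 38.6, 42.9 and 30.8 FPKM in control 1, 2 and 3 and 46.5, 39.0 and 46.6 FPKM in TAX 1, 2 and 3. TAX 2 lay below control 2, so the groups overlapped. The log2 difference of EGFR was 0.24 (SE 0.12, 95% interval -0.035 to 0.51, limma adjusted p = 0.540). It was 0.11 without control 3, and the groups were separate without control 2 (0.34) and without TAX 2 (0.32). ERBB2, the preferred dimer partner of the family, gave 15.9, 14.9 and 12.4 FPKM in control 1, 2 and 3 and 13.0, 13.8 and 13.3 FPKM in TAX 1, 2 and 3. The TAX libraries of ERBB2 lay between control 3 and control 2, with a log2 difference of -0.091 (limma adjusted p = 0.762) that ran from -0.021 without control 1 to -0.19, with separate groups, without control 3. Its exons overlap those of MIEN1 by 571 bases and of PGAP3 by 194 bases on the opposite strand, genes that averaged 11.9 and 4.02 FPKM in control and 11.7 and 4.26 FPKM in TAX. ERBB3, a neuregulin receptor with a weak kinase, averaged 7.06 ± 0.504 FPKM in control and 6.74 ± 0.344 FPKM in TAX (SD, n = 3), and ERBB4 stayed at or below 0.0141 FPKM. The ligands of EGFR were led by AREG at 157 FPKM in control and 164 FPKM in TAX and EREG at 50.4 and 56.8 FPKM.

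**Figure D3:**
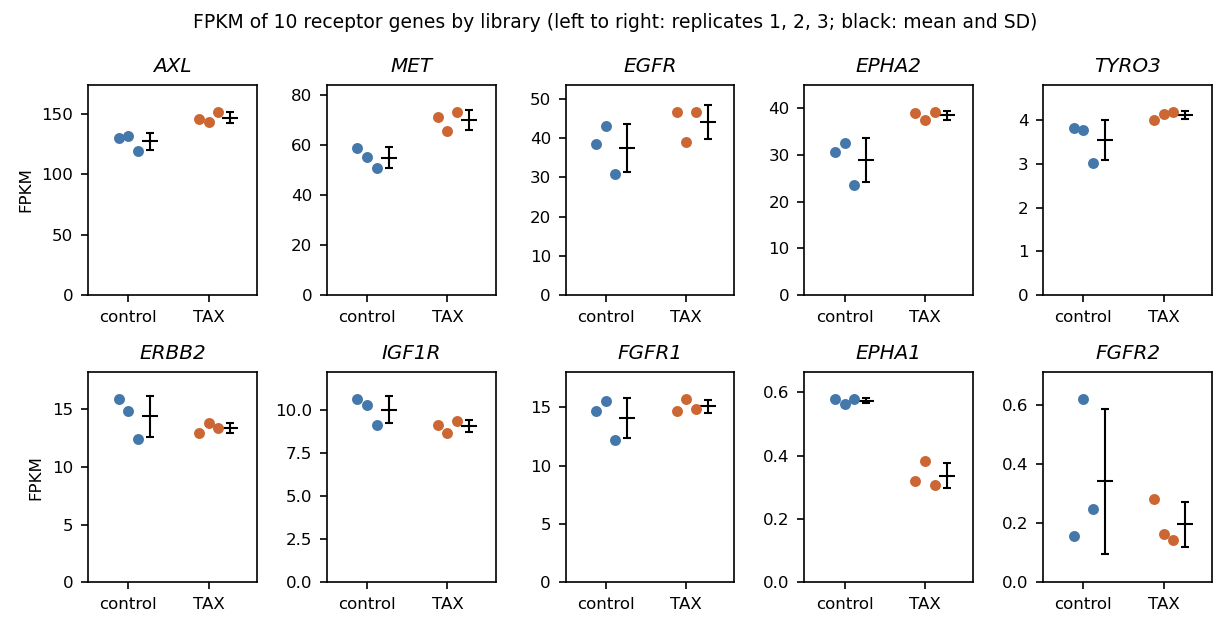
FPKM of 10 receptor genes in each library, with points for replicates 1, 2 and 3 from left to right within control (blue) and TAX (orange) and the mean and SD (n = 3) in black, each panel on its own linear axis from 0. AXL, MET, EPHA2 and TYRO3 lie higher in all 3 TAX libraries, EPHA1 lies lower in all 3, and the control mean of FGFR2 is carried by control 2 (0.620 FPKM).

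The FGF receptors were represented by FGFR1 and FGFR4, while FGFR2 and FGFR3 were under 1 FPKM in all 6 libraries. FGFR1, a receptor of FGF2, gave 14.6, 15.5 and 12.2 FPKM in control 1, 2 and 3 and 14.7, 15.7 and 14.8 FPKM in TAX 1, 2 and 3. The FGFR1 groups overlapped, with a log2 difference of 0.096 (95% interval -0.12 to 0.31, limma adjusted p = 0.750). This was 9.0e-05 without control 3 and 0.16 with separate groups without control 2. FGFR1 exons overlap those of LETM2 on the opposite strand by 138 bases, and LETM2 averaged 4.83 FPKM in control and 6.66 FPKM in TAX. FGFR4, which signals with KLB for FGF19, averaged 6.79 ± 0.575 FPKM in control and 6.75 ± 0.327 FPKM in TAX (SD, n = 3), a log2 difference of -0.0058 (95% interval -0.19 to 0.18, limma adjusted p = 0.984). KLB, under the limit for the test, averaged 0.968 ± 0.125 FPKM in control and 0.595 ± 0.0707 FPKM in TAX (SD, n = 3), with all 3 TAX libraries below the control libraries. KLB falls outside the rule by which genes of the lists were named. With the limit lowered to 0.1 FPKM, 4.46% of all genes had TAX libraries wholly below control. FGF2 stood at 4.86 FPKM in control and 5.20 FPKM in TAX.

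FGFR2, at chr10:121478334-121598458 on the minus strand, is the receptor that the study follows and measured 0.157, 0.620 and 0.248 FPKM in control 1, 2 and 3 and 0.283, 0.163 and 0.143 FPKM in TAX 1, 2 and 3. Control 2 was the highest of the 6 libraries, control 1 lay between TAX 2 and TAX 3, and the groups overlapped. The means were 0.342 ± 0.245 FPKM in control and 0.196 ± 0.0759 FPKM in TAX (SD, n = 3), a ratio of 0.575 with an exact two-sided permutation p of 0.6. Without control 2 the ratio was 0.970. When the limit was lowered to 0.1 FPKM, the limma log2 difference of FGFR2 was -0.15 (adjusted p = 0.698), and with a pseudocount of 0.1 at that limit it was -0.46 (adjusted p = 0.710). FGFR2 ranked 27 among the 49 receptors, and FGFR1 and FGFR4 gave nearly all of the FGF receptor sum of 21.7 ± 2.45 FPKM in control and 22.4 ± 0.953 FPKM in TAX (SD, n = 3). FGFR3 averaged 0.477 ± 0.0203 FPKM in control and 0.423 ± 0.132 FPKM in TAX with overlapping libraries.

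Control 2 was also the highest library for ROR2, ALK and DDR2, receptors of low level chosen after their values were seen. Among the 26 receptors under the limit and above 0 in a library, control 2 held the highest value in 9 (34.6%, against 16.3% of all such genes). Among the 11 of them with a mean of at least 0.1 FPKM, which leaves out ALK, it did so in 3, FGFR2, ROR2 and DDR2 (27.3%, against 15.5%). ROR2, a WNT5A receptor, gave 0.123, 0.251 and 0.0725 FPKM in control 1, 2 and 3 and 0.0672, 0.0921 and 0.0584 FPKM in TAX 1, 2 and 3. ALK, a neural receptor, gave 0.0536, 0.199 and 0.0367 FPKM in control 1, 2 and 3 and 0.0318, 0.0420 and 0.0543 FPKM in TAX 1, 2 and 3. DDR2, a receptor of fibrillar collagen, was also highest in control 2 at 0.568 FPKM, with 0.313 and 0.372 FPKM in control 1 and 3 and 0.390 to 0.462 FPKM in TAX. The groups of ROR2, ALK and DDR2 overlapped.

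DDR1 and RYK ranked 5 and 6, and their groups overlapped over the 6 libraries. DDR1 gave 25.9, 28.6 and 22.8 FPKM in control 1, 2 and 3 and 28.4, 27.7 and 29.2 FPKM in TAX 1, 2 and 3, with a log2 difference of 0.14 (95% interval -0.062 to 0.35, limma adjusted p = 0.621), which was 0.060 without control 3 and 0.22 with separate groups without control 2. RYK, a WNT receptor without an active kinase, gave 19.996, 20.2 and 17.1 FPKM in control 1, 2 and 3 and 19.8, 18.99 and 19.5 FPKM in TAX 1, 2 and 3. All TAX libraries of RYK lay inside the control range, and TAX 3 of DDR1 lay above it. The log2 difference of RYK was 0.025 (95% interval -0.16 to 0.21, limma adjusted p = 0.935) and turned to -0.033 with each library centred on its median and to -0.049 without control 3.

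Among the insulin receptors, IGF1R, the receptor of IGF1 and IGF2, averaged 10.0 ± 0.770 FPKM in control and 9.07 ± 0.340 FPKM in TAX (SD, n = 3). Its log2 difference of -0.13 (95% interval -0.31 to 0.054, limma adjusted p = 0.614) was the lowest of the 19 tested receptors, and TAX 3 lay above control 3. INSR, the insulin receptor, was just inside the limit with 2.12, 2.04 and 1.94 FPKM in control 1, 2 and 3 and 1.77, 2.08 and 2.13 FPKM in TAX 1, 2 and 3. EPHB2 was just outside it with 0.921, 0.881 and 0.796 FPKM in control 1, 2 and 3 and 0.757, 0.756 and 0.833 FPKM in TAX 1, 2 and 3. Neither gene had separate groups. ROR1 averaged 6.59 ± 1.014 FPKM in control and 7.40 ± 0.183 FPKM in TAX, and PTK7, a pseudokinase of WNT signalling, 4.41 ± 0.550 and 4.21 ± 0.150 FPKM (SD, n = 3), with limma adjusted p of 0.622 and 0.864. The log2 difference of ROR1 was 0.16, and it was 0.046 without control 3 and 0.24 with separate groups without control 1.

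Among the VEGF, TIE, class III, TRK, RET, MUSK, ALK and ROS receptors, which are best known from vessels, blood cells, nerve and muscle, FLT4, the receptor of VEGFC, alone reached the limit, at 2.26 ± 0.122 FPKM in the control and 2.199 ± 0.326 FPKM in the TAX libraries (SD, n = 3, limma adjusted p = 0.916). FLT3 and CSF1R, cytokine receptors of blood cells, averaged between 0.107 and 0.191 FPKM in each group with overlapping libraries. LTK, KDR, KIT, PDGFRA, PDGFRB, RET, TEK, NTRK2, TIE1, FLT1 and MUSK averaged under 0.1 FPKM, and NTRK3 was listed at 0. ROS1, also named after its values were seen, measured 0.0277, 0.0303 and 0.0386 FPKM in control 1, 2 and 3 and 0.0191, 0.0151 and 0.0172 FPKM in TAX 1, 2 and 3. Its groups did not overlap (exact permutation p = 0.1), and the number of reads behind such values is not known. An exact 0 can be a failed estimate, and 9 receptors were at 0 in 1 to 5 libraries.

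The summed receptor mRNA was higher in TAX, and the 4 most abundant genes held 51.0 of the 54.3 FPKM between the group means. The sum over the 49 genes was 417, 425 and 359.5 FPKM in control 1, 2 and 3 and 456, 442 and 467 FPKM in TAX 1, 2 and 3. The groups did not overlap, and control 3 was the lowest library. The means were 400.5 ± 35.7 and 455 ± 12.5 FPKM (SD, n = 3), a ratio of 1.14 (exact permutation p = 0.1), or 1.12 with every library scaled to the same summed FPKM and 1.08 without control 3. AXL, MET, EGFR and EPHA2 together averaged 248 ± 20.8 FPKM in control and 299 ± 13.1 FPKM in TAX (ratio 1.21), while the other 45 genes averaged 152 ± 14.9 and 155 ± 2.03 FPKM (ratio 1.02, exact permutation p = 1). Without control 3 the sum over the 49 genes differed by 33.9 FPKM, that of the 4 genes by 39.1 FPKM, and the other 45 were lower in TAX (ratio 0.967).

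Shares of the receptor sum do not depend on the scale of a library. AXL, MET, EGFR and EPHA2 made up 62.0% ± 0.353 of it in control and 65.8% ± 1.14 in TAX (SD, n = 3), with all 3 TAX libraries above the control libraries (exact permutation p = 0.1). MET alone took 13.7% ± 0.659 in control and 15.4% ± 0.456 in TAX, and EPHA2 7.18% ± 0.572 and 8.45% ± 0.0667, while AXL stayed at 31.9% ± 1.23 and 32.3% ± 0.208. IGF1R and INSR together took 3.02% ± 0.0996 in control and 2.43% ± 0.0303 in TAX, and RYK 4.77% ± 0.0195 and 4.27% ± 0.0867, each with separate groups (exact permutation p = 0.1). A share also moves with the other genes in the sum, and the FPKM of IGF1R and of RYK overlapped between groups.

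**Figure D4:**
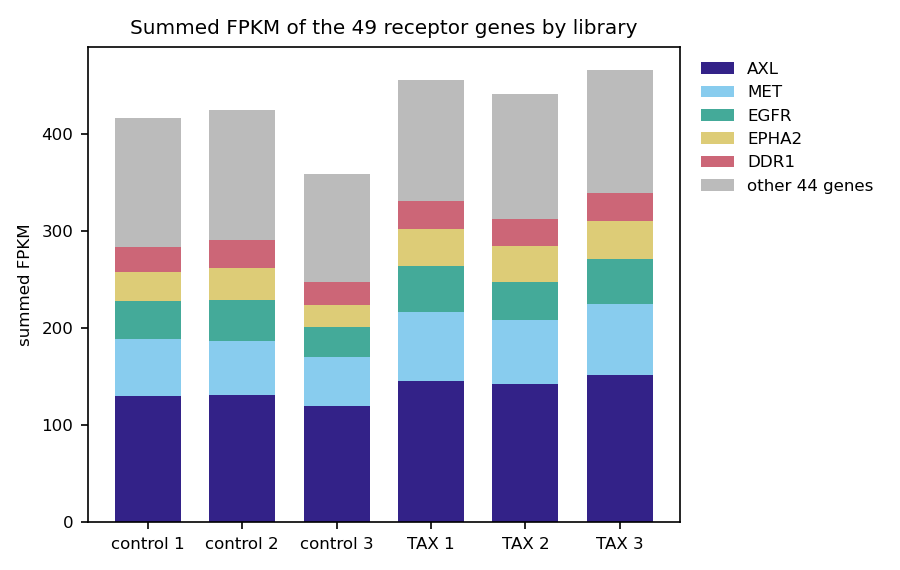
Summed FPKM of the 49 receptor genes in each of the 6 libraries, stacked by the 5 most abundant genes and the other 44. The TAX sums (442 to 467 FPKM) lie above the control sums (359.5 to 425 FPKM), and the AXL segment is the largest in each library.

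The genes around the receptors were read from lists of 70 ligands, 9 co-receptors, 30 adaptors and 27 negative regulators. None of the 79 tested genes passed an adjusted limma p of 0.05, the smallest being 0.210. Among 30 tested ligands 1 was higher (3.33%, against 7.73% of all tested genes) and 2 were lower (6.67%, against 2.41%) at an unadjusted limma p under 0.05, with a median log2 difference of 0.071. TGFA, a ligand of EGFR, averaged 19.1 ± 1.87 FPKM in control and 22.7 ± 0.954 FPKM in TAX (SD, n = 3) with separate groups (limma adjusted p = 0.400). PDGFA, a ligand of the PDGF receptors, averaged 6.03 ± 2.18 and 3.69 ± 0.605 FPKM (log2 difference -0.54, limma adjusted p = 0.380) with overlapping libraries, and the difference was -0.32 without control 2, while its receptors PDGFRA and PDGFRB were under 0.1 FPKM. EFNA5, an ephrin, averaged 7.70 ± 0.560 and 6.61 ± 0.235 FPKM (limma adjusted p = 0.471). Without control 3 the log2 difference was 0.17 for TGFA, -0.78 for PDGFA and -0.25 for EFNA5. Over all 6 libraries these differences were 0.25, -0.54 and -0.19.

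Of the 9 co-receptors only NRP1, a partner of VEGF receptors, reached the limit, which averaged 24.2 FPKM in the control libraries and 25.5 FPKM in the TAX libraries. Among 24 tested adaptors, which link the phosphorylated receptors to their pathways, 2 were higher (8.33%) and 1 was lower (4.17%) at an unadjusted limma p under 0.05, against 7.73% and 2.41% of all tested genes. TAX libraries lay wholly above control for 6 of the 24 (25.0%, against 14.6% of all tested genes). The genes at an unadjusted limma p under 0.05 were SH2B3 at 7.44 ± 0.832 and 9.36 ± 0.504 FPKM (limma adjusted p = 0.303), NCK2 at 7.31 ± 0.397 and 8.69 ± 0.279 FPKM (limma adjusted p = 0.380) and, lower, GAB1 at 2.90 ± 0.408 and 2.30 ± 0.201 FPKM (limma adjusted p = 0.445), each in control and in TAX (SD, n = 3). The most abundant adaptor was SHC1 at 189 and 186 FPKM. Without control 3 the log2 difference was 0.22 for SH2B3, 0.18 for NCK2 and -0.31 for GAB1. Over all 6 libraries these differences were 0.30, 0.22 and -0.24.

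The negative regulators held the largest share of unadjusted calls among these lists, 8 of 24 higher (33.3%, against 7.73% of all tested genes) and 1 lower (4.17%, against 2.41%), with a median log2 difference of 0.11 against 0.054 over all tested genes. Sprouty and SPRED genes, which restrain RAS/MAPK signalling downstream of receptors, made up 5 of the 8, a grouping made after the values were seen. The list held 7 such genes, of which 6 were tested, and SPRY1 (1.47 and 1.28 FPKM in control and TAX) and SPRY3 (0.410 and 0.364 FPKM) had overlapping groups. SPRY2 measured 8.81 ± 1.03 FPKM in control and 11.4 ± 0.311 FPKM in TAX (SD, n = 3), a log2 difference of 0.34 (limma adjusted p = 0.210). SPRY4 averaged 1.36 ± 0.163 and 1.89 ± 0.0972 FPKM (limma adjusted p = 0.257) and SPRED1 7.67 ± 0.965 and 9.69 ± 0.502 FPKM (limma adjusted p = 0.301). PTPRJ, a receptor phosphatase that acts on several of these kinases, was the gene on the lower side, at 7.02 ± 1.11 FPKM in control libraries and 5.12 ± 0.429 FPKM in TAX libraries (log2 difference -0.38, limma adjusted p = 0.234). Without control 3 the log2 difference was 0.26 for SPRY2, 0.24 for SPRY4, 0.24 for SPRED1 and -0.43 for PTPRJ. Over all 6 libraries those of SPRY4 and SPRED1 were 0.29 and 0.31. The unadjusted counts of the ligands, adaptors and negative regulators are given for all 6 libraries alone.

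**Figure D5:**
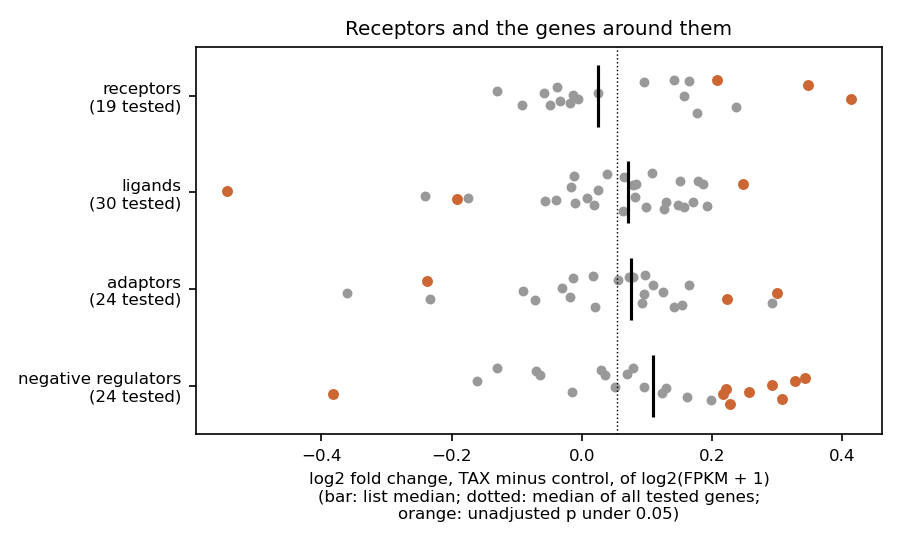
Difference between TAX and control on the log2(FPKM + 1) scale for tested receptors (19), ligands (30), adaptors (24) and negative regulators (24), with each point a gene, the bar the median of the list, the dotted line the median of all tested genes (0.054) and orange an unadjusted limma p under 0.05. The negative regulators hold 9 orange points and the receptors 3, and no gene shown passed the adjusted threshold.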

How the data were processed

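RNA sequencing of DU145 cells was analysed in 6 libraries, 3 control and 3 TAX. Each deposited table gives 1 library's expression value for every identifier, taken here as FPKM because the values are decimals and their sums differ. The submitters' processing notes name HISAT2 2.2.0, StringTie 2.1.2 and GRCh38. Annotation, parameters and strand settings are not given in the sources used here, and 3130 identifiers carry the MSTRG prefix of the StringTie assembler. Replicates were not pooled. Steps of whole reads were sought in 332 genes above 0 and under 0.03 FPKM in both control 1 and control 3. At most 5.72% of their log2 ratios between these libraries fell in any bin 0.1 wide. Whole reads could thus not be recovered from this pair, other pairs were not examined, and depth is unknown. No interval from counting is given.

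From the deposited FPKM, log2(FPKM + 1) of genes that reached 1 FPKM in 3 or more libraries was fitted with limma 3.58.1 (R 4.3.3, eBayes with trend, no covariate), two-sided, with Benjamini-Hochberg adjustment over 12359 genes. A fold change on this scale understates the change of low genes. Genes under the limit, sums and shares were compared by exact two-sided permutation tests over the 6 libraries, whose smallest p is 0.1. The scripts were tested on simulated data. Positions and exon overlaps came from GENCODE 29 and promoters from RefSeq GRCh38.p14. Whether libraries of the same replicate number were paired is not stated, and the main fit did not pair them.

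The members and gene lists were chosen with earlier results of these data known. Values in every library were given for receptors with a mean of at least 10 FPKM, with an unadjusted p under 0.05 or separate groups among those tested, next to the limit, and for FGFR2, and up to 4 genes per list with the smallest unadjusted p under 0.05 were named. Alternatives were pseudocount 0.1, a limit of 0.1 FPKM or none, quantile normalization, median centring, no trend, equal summed FPKM, a replicate block and leaving out each library, and 1 chosen after seeing the data that joins pseudocount 0.1 with the limit of 0.1 FPKM. Some marker genes are not reported here.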

Additional observations from a re-analysis of the deposited data

How the results depend on the processing

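Across the 14 alternatives of the limma fit 0 receptors and 0 genes of the pathway lists passed an adjusted limma p of 0.05. AXL, MET, EPHA2 and TYRO3 had separate groups under quantile normalization and median centring, which rescale the libraries and could undo a separation. Leaving out a library, another pseudocount or limit and no trend cannot make separate groups overlap, so they do not test it. MET and EPHA2 had an unadjusted limma p under 0.05 in all 14, AXL in 9 and TYRO3 in 1. The adjusted p ranged from 0.109 to 0.591 for MET, from 0.108 to 0.522 for EPHA2 and from 0.341 to 0.852 for AXL. The 3 receptors with an unadjusted p under 0.05 became 5 under quantile normalization (MET, EPHA2 and TYRO3 higher) and 5 under median centring (AXL, MET and EPHA2 higher), each with ERBB2 and IGF1R lower, and 2 to 6 when 1 library was left out. The 4 with separate groups became 7 under quantile normalization and 8 under median centring (4 higher and 4 lower), and 5 to 8 when 1 library was left out. Over all tested genes the share at an unadjusted p under 0.05 was 10.1% in the fit as reported, 11.8% under quantile normalization, 12.1% under median centring and 6.30% to 13.3% with 1 library left out, and the share with separate groups 17.9%, 17.9%, 18.7% and 24.6% to 31.5%. By direction, groups were separate for 9.14% of all tested genes higher and 9.53% lower under median centring, and 9.74% and 8.16% under quantile normalization. The causes were not tested. Under the replicate block 2 receptors, MET and EPHA2, had an unadjusted p under 0.05, and 6 differed one way in all 3 same-numbered pairs (against 7.86% and 30.04% of all tested genes), which is another measure than separate groups. The mean of the 3 pair ratios was 1.14 for the receptor sums and 0.882 for FGFR2 (1.81, 0.264 and 0.575), not a ratio of means. Equal summed FPKM was applied to sums and ratios alone. Replicate numbers gave r = -0.12, -0.33 and -0.17 between same-numbered libraries, and no control library correlated best with its own number. The ratio of the receptor sums stayed between 1.08 and 1.17 and that of FGFR2 between 0.448 and 0.970 when 1 library was left out.

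Differences close to 0 changed sign, without passing an adjusted threshold in any fit. RYK turned to -0.044 under quantile normalization and -0.033 under median centring. Leaving out 1 library at a time, RYK ran from -0.049 (without control 3) to 0.064, EPHB4 from -0.065 to 0.047, FGFR4 from -0.062 to 0.045, PTK7 from -0.12 to 0.027, MERTK from -0.096 to 0.025, FLT4 from -0.11 to 0.029 and INSR from -0.051 to 0.036. Where 1 group kept 2 libraries, the fit assumed equal spread in both. Depth is unknown, so differences of receptors under 1 FPKM were judged by replicates alone.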
